A study of Mus musculus with 18 samples.

Results

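In mouse embryonic fibroblasts (MEF) that lack KAP1, the list of H3K9me3 peaks is crowded at the far end of chromosome 10. The regions described here are the 1180 H3K9me3 peaks of the Kap1 KO library that share at least 1 bp with chr10:110000001-129993255 of the mouse build mm9. They are 27.3% of the 4319 peaks of that library (95% confidence interval 26.0% to 28.7%), in 0.753% of the genome's bases. With scores of at least 80, the share was 722 of 1482, or 48.7% (46.1% to 51.3%). They were selected on measured values: each was called as a peak in the Kap1 KO H3K9me3 library, and the window was chosen with the high number of such peaks in it known. Their number, density and excess over WT are therefore a description and support nothing.

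The study asked how KAP1 acts at genes of KRAB zinc finger proteins and related elements, and it profiled histone marks in MEF with and without Kap1. Groups used here are MEF of C57BL/6 background (C57BL/6J in the methods) and embryonic stage, with the genotype Kap1 KO or WT Kap1 loxP/loxP, in which the conditional alleles are intact. Each genotype has 1 H3K9me3 and 1 H3K27ac chromatin immunoprecipitation library, and both marks of a genotype were set against 1 shared total input. A list of KAP1 peaks from Hepa 1.6 cells, a hepatoma line of a C57L mouse with WT Kap1, was used for comparison. The methods state that the MEF RNA-seq used a Kap1 KO clone after long culture, with unexcised WT cells grown alongside. The methods do not say whether the chromatin came from the same clone. With 1 library per genotype and mark no replicate check is possible, and the genotypes are compared without a p-value. Intervals on shares are exact Clopper-Pearson 95% intervals that cover counting error only.

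KAP1, also called TRIM28, is a corepressor that KRAB zinc finger proteins bring to DNA, above all to transposable elements. It recruits SETDB1, the enzyme that places 3 methyl groups on lysine 9 of histone H3, and this mark, H3K9me3, goes with compact and silent chromatin. Other enzymes can place the same mark without KAP1, and they act mainly on repeat-rich heterochromatin. H3K27ac, an acetyl group on lysine 27 of the same histone, marks promoters and enhancers in use.

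The fibroblast label was compared with H3K27ac at gene starts. Of 11 fibroblast genes, among them the collagen genes Col1a1, Col1a2 and Col3a1 and the filament gene Vim, 10 had an H3K27ac peak within 1 kb of their start in Kap1 KO and 10 in WT MEF. The exception in both was Fap, a surface protease of activated fibroblasts. None of 5 hepatocyte genes and none of 4 blood genes had a peak in either genotype. Of 5 embryonic stem cell genes, 2 had a weak peak in Kap1 KO MEF, Dppa5a with a score of 75.81 and Esrrb with 80.22, and 0 did in WT. Of 4 epithelial genes, 1 had a peak in WT, the keratin gene Krt8 with a score of 1622.36, and 0 in Kap1 KO. Myog, 1 of 3 muscle genes, had a peak in Kap1 KO alone, with a score of 154.47. Of 3 endothelial genes, 2 had peaks in both lists, Kdr with scores of 164.84 in Kap1 KO and 1258.07 in WT, and Pecam1 with 161.21 and 174.31. The labels of both genotypes thus held for the fibroblast genes, and the part of the other markers in any result was not tested.

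Along 1 Mb bins, with each peak put in the bin of its middle, the members were spread unevenly. The 4 bins from 110000001 to 114000000 held 0 members, and so did the last 2, from 128000001 on. Between them lay 14 bins that all held members. The bins that start at 114000001, 115000001 and 116000001 held 18, 36 and 25 members. The next, from 117000001, held 106 and the one after it 164. The count then fell to 8 in the bin from 119000001. It was 41 from 120000001 and 115 from 121000001. From 122000001 it was 79, from 123000001 it was 196, and from 124000001 it reached 255, the highest of the window. The last 3 bins with members held 78, 24 and 35. The members thus form a first group in the bins from 117000001 and 118000001, a larger one that culminates at 124000001, and a thin zone at 119000001 between them.

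A step was counted where neighbouring bins differed by at least 20 peaks and at least 3-fold, and 6 such steps were found. The count rose 4.24-fold at 117000001 and dropped 20.5-fold at 119000001. It rose again 5.12-fold at 120000001. At 125000001 it dropped 3.27-fold and at 126000001 by 3.25-fold, and the last step, at 128000001, went from 35 to 0. Between the step at 120000001 and the peak at 124000001 there was no further step. The 5 bins with at least 100 members held 836 of the 1180.

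WT H3K9me3 peaks showed another profile over the same bins. They numbered 264, with 1 to 44 per bin, and the highest bin was the one from 127000001, near the end of the members. In the bin from 124000001, where members were densest, there were 2 WT peaks. In the 4 bins before the first member, WT peaks numbered 12, 8, 4 and 1. Kap1 KO peaks outnumbered WT peaks in 12 of the 20 bins and were fewer in 8. Over the genome, this was so in 277 of 2207 bins with a peak of either list, or 12.6%, and since the window was chosen for its Kap1 KO peaks nothing is read from the difference. The lists differ in length, with 4319 Kap1 KO and 14425 WT peaks, and such bins numbered 583 with lists cut to equal length and 93 with scores of at least 80. The fullest Kap1 KO bin outside the window, on chromosome 5 from 95000001, held 84 peaks beside 8 in WT, and 5 bins of the window held more than that. The whole of chromosome 10 before the window held 40 Kap1 KO peaks, at most 10 in a bin.

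Most members lay in a few crowded stretches. A dense stretch was defined as a run of at least 20 members with less than 100 kb between the end of one and the start of the next. There were 8, numbered here from the centromere side, and they held 1135 members, or 96.2%. Together they spanned 6.64 Mb, which is 33.2% of the window. Members numbered 171 per Mb inside and 3.37 per Mb outside. They covered 37.3% of the bases of the stretches, while WT H3K9me3 peaks covered 1.11% of the same bases.

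The stretches differed in size and in how tightly they were filled. Stretch 1, from 114896472 to 115290409, held 47 members over 23.6% of its bases. Stretch 2, from 116845845 to 117081189, held 31 over 32.8%. Stretch 3, from 117453346 to 119101638, held 261 over 43.3% and was the second longest, at 1648 kb. Stretch 4, from 120429851 to 120748491, held 41 over 36.2%. Stretch 3 ends just inside the thin bin from 119000001, and stretch 4 begins after that bin. Stretch 5, from 121290574 to 122172127, held 119 members over 26.1% of its bases. Stretch 6, from 122658855 to 125337972, was the longest at 2679 kb and held 577, more than the others together, over 41.4%. Stretch 7, from 125986576 to 126258797, was the sparsest, with 24 members over 16.9%. Stretch 8, from 127204122 to 127419877, was the shortest at 215.8 kb and held 35 over 42.9%. Density ran from 88.2 members per Mb in stretch 7 to 215 in stretch 6.

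Inside a stretch, members sat close together. The median gap between neighbours ran from 764.5 bp in stretch 3 to 2964 bp in stretch 1. Gaps of at least 20 kb were few, 35 in all. The median score of the members ran from 81.84 in stretch 5 to 122.81 in stretch 3. The score is the number deposited with each peak. It ranks peaks within a list, and since the depth of the libraries is unknown, a difference in score between lists is not read as a difference in the amount of a mark. The stretch with the most members, stretch 6, had a median score of 89.64, below that of 4 others.

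The same rule over the rest of the Kap1 KO list gave 19 stretches with 814 peaks over 9.53 Mb on other chromosomes. The one with the most peaks, on chromosome 5 from 94572570 to 95824838, held 107 peaks at 85.4 per Mb, beside 10 WT peaks. All 19 held more Kap1 KO than WT peaks, as did 7 of the 8 on chromosome 10. The peaks of the 19 stretches were narrower, with a median width of 493.5 bp against 1805 bp for members in stretches, and 8.23% of them (6.44% to 10.3%) overlapped a WT H3K9me3 peak. Density reached 273 per Mb in one of the 19, so that stretches this tight also lay elsewhere.

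In the WT list, the rule gave 61 stretches over the genome, and 2 of them lay in the window. One, from 120428218 to 120790928 with 23 WT peaks, began 1.63 kb before stretch 4 and ended 42.4 kb after it. The other, from 127180553 to 127447868 with 42 WT peaks, began 23.6 kb before stretch 8 and ended 28.0 kb after it. Stretches 4 and 8 thus lie inside dense WT ground, and the 6 others do not. WT peaks covered 4.43% and 9.31% of the bases of those WT stretches, and Kap1 KO peaks covered 31.8% and 34.7%. The window was chosen for its Kap1 KO peaks, so nothing is read from this difference. Stretch 8 was the only one of the 8 with more WT peaks, 37, than members.

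Edges of the dense stretches were placed against genes. Of the 16 edges, 9 lay between genes and 6 inside a protein-coding gene. Stretch 1 begins inside Lgr5, the gene of an R-spondin receptor known from intestinal stem cells, and ends 3.46 kb past Tspan8, a tetraspanin gene. Stretch 2 begins 31.8 kb past Cpsf6, which encodes an mRNA 3′ end processing factor. It ends within an intron of Cpm, the gene of carboxypeptidase M, and 44.8 kb before Mdm2, the gene of the main ubiquitin ligase of p53. The Mdm2 gene thus lies just outside.

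Stretch 3 begins 170 kb past Rap1b, a gene of a Ras-like GTPase, and ends in an intron of Grip1, the gene of a scaffold protein of glutamate receptors. Stretch 4 begins 13.5 kb past Lemd3, a gene of the inner nuclear membrane, and ends 0.245 kb upstream of Tbc1d30, the gene of a Rab GTPase activator. Stretch 5 begins in an intron of Srgap1, a gene of Slit-Robo signalling, and ends in an intron of the phosphatase gene Ppm1h. Stretch 6 begins 24.8 kb past Usp15, a deubiquitinase gene, and ends 65.3 kb before Lrig3. Stretch 7 has no protein-coding gene within 300 kb of its first edge, and it ends 46.7 kb before Xrcc6bp1. Stretch 8 begins in exonic sequence where the gene models of Rdh1 and Rdh9, of the retinol dehydrogenase cluster, overlap, and ends 8.12 kb before Hsd17b6, the gene of a steroid dehydrogenase.

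H3K27ac also differed across the edges, a readout that the choice of members did not use. In the 100 kb inside each of the 16 edges there were 169 members and 10 Kap1 KO H3K27ac peaks in all. In the 100 kb outside there were 42 Kap1 KO H3K27ac peaks and, by the rule for stretches, 0 members. In WT cells there were 15 H3K27ac peaks inside and 48 outside. Edge by edge, the Kap1 KO list had more H3K27ac peaks outside than inside at 12 of the 16 and as many at the other 4, among them the first edge of stretch 7. The WT list had more outside at 11, as many at 2 and more inside at 3, namely the last edge of stretch 1 and the first edges of stretches 6 and 7.

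The spaces between stretches hold few members by the rule for stretches, so their counts are a description. The space between stretches 2 and 3, which is 372 kb long and holds Mdm2, Slc35e3, Nup107 and Rap1b, had 0 members and 13 Kap1 KO H3K27ac peaks. The 1328 kb between stretches 3 and 4, with Hmga2, a chromatin protein of embryonic cells, and Irak3, had 5 members and 50. The 945 kb between stretches 7 and 8 hold 41 protein-coding gene starts, among them Cdk4, Gli1, Ddit3 and Lrp1, and had 1 member and 42 Kap1 KO H3K27ac peaks. The space between stretches 6 and 7 had 1 gene start, that of Lrig3, 8 members and 13 Kap1 KO H3K27ac peaks. The 542 kb between stretches 4 and 5 had the most members, 17, and 11 Kap1 KO H3K27ac peaks.

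Few genes begin in the stretches. Of 246 protein-coding genes that start in the window, 26 start in a dense stretch, which is 3.91 per Mb against 16.5 per Mb in the rest of the window. Of the 26, 21 had a member over their body, and of the 220 outside, 7 did. An H3K27ac peak lay within 1 kb of the start of 9 of the 26 in Kap1 KO and of 11 in WT MEF. Outside the stretches this held for 115 and 117 of 220 genes.

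The genes inside fall into those with and those without H3K27ac at the start. Members lay farther from starts of the first kind. The 9 starts with a Kap1 KO H3K27ac peak lay a median of 11.04 kb from the nearest member, and 1 of them was within 1 kb of a member. The 17 starts without one lay a median of 0.105 kb away, and 12 were within 1 kb. Of the genes wholly inside a stretch, the 6 with H3K27ac at the start had 12.1% of their bases under members, and the 15 without had 48.4%.

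Some genes with H3K27ac at the start inside the stretches are described by name. Dyrk2, the gene of a kinase that acts on p53, had scores of 3100 at its start in both genotypes, 0 members over its body and the nearest member 11.04 kb away. Cand1, whose product exchanges the parts of cullin ubiquitin ligases, had the same scores, 0 members and 15.0 kb. Mdm1, the gene of a centriole protein, had scores of 2095.86 in Kap1 KO and 2720.06 in WT and 0 members. These 3 genes stand as member-free islands in stretch 3. Tmem5, which encodes a sugar transferase, had 3100 in both lists and 1 member. Wif1, the gene of a secreted Wnt inhibitor, had 390.67 in Kap1 KO and 344.61 in WT with 8 members over 18.5% of its body. Tbc1d30 was the one start with both H3K27ac and a member within 1 kb, with scores of 239.86 and 93.03.

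Genes without Kap1 KO H3K27ac at the start varied widely in cover. Among the least covered, 4932442E05Rik had 0%, Lgr5 8.31%, Sdr9c7 11.2%, Cpm 13.4% and Tspan8 14.5% of the body under members. The cytokine genes of stretch 3 were among the most covered. Il22 and Iltifb, genes of interleukin 22 and its close copy, had 93.3% and 72.8% of their bodies under members, and Ifng, the gene of interferon gamma, had 64.7%. None of the 3 had an H3K27ac peak at its start in either list. In stretch 6, Slc16a7, the gene of a transporter of lactate and pyruvate, had 38 members over 71.1% of its 102.5 kb. Fam19a2, the gene of a secreted protein made mostly in brain, had 95 members over 46.3% of its 477 kb, the most of any gene. Its start had no Kap1 KO H3K27ac peak and a weak WT one, with a score of 90.55. In stretch 8, Rdh16, Rdh19 and Rdh7, genes of retinol dehydrogenases, had 53.6%, 94.4% and 61.0% of their bodies under members, and BC089597 had 22.4%. Rdh1 and Rdh9, which start outside the stretch, had 14.4% and 51.2%.

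The 10 protein-coding genes with the most members over their body were, in order after Fam19a2 and Slc16a7, Srgap1 with 32 members, Grip1 and Lgr5 with 13 each, D930020B18Rik with 11, Rdh16 with 9, Wif1 with 8, Trhde with 7 and Rdh9 with 6. Per length the order differs: Grip1 spans 633 kb and had 2.05 members per 100 kb, where Slc16a7 had 37.1. Trhde, the gene of an enzyme that degrades thyrotropin-releasing hormone, D930020B18Rik and Rdh9 start outside the stretches. Srgap1 and Grip1 carried H3K27ac at their starts, at 2368.05 and 3100 in Kap1 KO cells, and their members lay away from the start, 17.2 kb and 12.6 kb at the nearest.

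Gene lists drawn up for the window were counted as groups, beside all 246 protein-coding genes, of which 28 had a member over the body and 124 had Kap1 KO H3K27ac at the start. Of 14 genes of p53 and the cell cycle, 14 had H3K27ac at the start in both genotypes, 3 start in stretches and 0 had a member over the body. They include Mdm2, Cdk4 and Cdk2, the kinase genes of G1 and S phase, and Timeless, a gene of replication forks, all with a score of 3100 in both lists. Of 26 genes of signalling and transcription, 6 start in stretches and 7 had members, 72 in all. Those were Lgr5, Il22, Ifng, Grip1, Wif1, Srgap1 and Irak3, while Gli1, Stat2, Stat6, Hmga2 and Erbb3 had 0.

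A list of 17 genes was drawn up for the fibroblast membrane, matrix and metabolism. Of these, 3 had members, namely Slc16a7 with 38, Cpm with 5 and Kif5a with 1. In each genotype 15 had H3K27ac at the start, all but Slc16a7 and Cpm. A place on the list does not show that a gene is in use in these cells. Some genes of this list had unlike H3K27ac scores in the Kap1 KO and WT lists without any member. Os9, a gene of protein quality control in the endoplasmic reticulum, had a score of 136.63 in Kap1 KO and 2376.99 in WT, and Mmp19, a matrix metalloproteinase gene, had 1382.56 and 205.99. The lysozyme genes Lyz1 and Lyz2 and the 58 olfactory receptor genes of the window had neither members nor H3K27ac at the start. The olfactory receptor genes lie past the last member, so their count follows from their position.

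Members lay between genes more often than other Kap1 KO H3K9me3 peaks. Of the 1180 members, 915 were between genes, or 77.5% (75.1% to 79.9%), against 62.2% (60.4% to 63.9%) of the 3139 other Kap1 KO peaks. Of the 1135 members in stretches, 78.9% (76.4% to 81.2%) were between genes, and of all positions of the stretches 75.4% are. Introns held 235 members, or 19.9%, and exons 13. Within 1 kb of a transcript start lay 17 members, or 1.44% (0.841% to 2.30%), against 6.47% (5.63% to 7.38%) of the other Kap1 KO peaks. Within 2 kb the shares were 2.46% and 10.1%, and without stretch 6 that of members within 1 kb was 2.32%. For members in stretches the share was 1.32% (0.742% to 2.17%), beside 1.58% of stretch positions.

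Few members lay where WT cells had an H3K9me3 peak. Of the 1180, 56 overlapped one, or 4.75% (3.60% to 6.12%), against 12.97% (11.8% to 14.2%) of the other Kap1 KO peaks. Both shares depend on the processing: they were 3.05% and 23.2% with scores of at least 80, and 1.69% and 6.56% with lists of equal length. Without stretch 6, left out after the data were seen, 8.13% (6.07% to 10.6%) of members overlapped a WT peak. The share was 22.4% (13.6% to 33.4%) for the 76 members of stretches 4 and 8, which lie in dense WT ground, and 3.21% (2.23% to 4.46%) for the 1059 of the other stretches. By stretch it ran from 1.21% in stretch 6 to 34.3% in stretch 8. The 56 members over WT peaks were wider than the rest, with a median of 2521 bp against 1765.5 bp, and had a higher median score, 133.93 against 93.75.

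Overlap was also counted from the WT side. Of 125 WT H3K9me3 peaks with their middle in a stretch, 64 overlapped a member, or 51.2% (42.1% to 60.2%). In the rest of the window, 6 of 139 did, or 4.32% (1.60% to 9.16%), and elsewhere 392 of 14161 WT peaks met a Kap1 KO peak, or 2.77% (2.50% to 3.05%). The stretches are defined by the density of members, so the shares inside and outside depend on that rule and nothing is read from the difference. The WT peaks of the stretches had a median width of 512 bp, beside 563 bp in the rest of the window and 496 bp elsewhere.

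Members and H3K27ac peaks rarely met. Of the 1180 members, 10 overlapped a Kap1 KO H3K27ac peak, or 0.847% (0.407% to 1.55%). Of the 3139 other Kap1 KO H3K9me3 peaks, 24 did, or 0.765% (0.490% to 1.14%). Members were wider, with a median of 1786.5 bp against 397 bp. The shares were not corrected for width, so no likeness is read from them. Over WT H3K27ac peaks lay 18 members, or 1.53% (0.907% to 2.40%), against 34 of the other peaks, or 1.08% (0.751% to 1.51%). Of the 18, 13 were in stretch 6, without which the share was 0.829%. With the upper 50% of each list the shares were 0.220% of members and 0.561% of the other peaks. Kap1 KO H3K27ac peaks covered 1.69% of the stretch bases and 10.5% of the rest of the window. WT H3K27ac peaks covered 1.64% and 8.05%. The stretches were thus poor in H3K27ac in both genotypes.

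Inside the stretches, most Kap1 KO H3K27ac peaks sat in holes between members. The 35 gaps of at least 20 kb made up 19.6% of the stretch bases. They held 27 of the 39 Kap1 KO H3K27ac peaks of the stretches and 31 of the 60 WT peaks. Of the 9 gene starts with Kap1 KO H3K27ac, 8 lay in them, beside 13 of all 26 protein-coding gene starts of the stretches. The widest holes were 83.2 kb inside Grip1, with no H3K27ac peak of either genotype, and 83.0 kb in stretch 7, with 3 Kap1 KO and 4 WT H3K27ac peaks. The middle of a member lay a median of 69.0 kb from the nearest Kap1 KO H3K27ac peak, where positions taken every 1 kb lay 58.6 kb away, and 2.03% of members (1.29% to 3.03%) against 6.75% of positions lay within 5 kb.

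The stretches had fewer H3K27ac peaks in Kap1 KO than in WT cells, 39 against 60. Of the WT peaks, 28 had no Kap1 KO peak over them, or 46.7% (33.7% to 60.0%). This share was 22.3% (18.3% to 26.8%) in the rest of the window and 22.8% (22.3% to 23.2%) in the rest of the genome. Of the Kap1 KO peaks of the stretches, 8 had no WT peak, or 20.5% (9.30% to 36.5%), beside 19.6% (15.4% to 24.3%) in the rest of the window and 22.9% in the rest of the genome. Without stretch 6 the share of WT peaks was 32.4% (18.0% to 49.8%), an interval that holds the values of the rest of the window and of the genome. None of the 7 Kap1 KO peaks of stretch 6 lacked a WT peak. In the 19 dense Kap1 KO stretches of other chromosomes, 21 of 30 WT H3K27ac peaks lacked a Kap1 KO peak, or 70.0% (50.6% to 85.3%), and 4 of 14 Kap1 KO peaks lacked a WT peak, or 28.6% (8.39% to 58.1%). H3K27ac peaks were fewer in Kap1 KO cells in 16 of the 20 bins of the window and more numerous in 3, beside 43.1% of the 2408 bins of the genome where Kap1 KO peaks were more numerous. The window had 371 Kap1 KO and 450 WT peaks, chromosome 10 before it 1496 and 1804, and the other chromosomes 34569 and 34021. The lower number of peaks in Kap1 KO was thus shared with the rest of chromosome 10 and not with the other chromosomes as a whole. The bases covered were not alike in the 2 parts of chromosome 10. Kap1 KO and WT peaks covered 1.51 and 1.18 Mb in the window, and 3.25 and 4.17 Mb before it.

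Stretch 6 held most of the WT peaks without a Kap1 KO counterpart, 16 of 28. It had 23 WT and 7 Kap1 KO H3K27ac peaks. The 28 were weak, with a median score of 102.3, and 19 lay between genes, 7 in introns and 2 at transcript starts. Members lay over 9 of them. The highest, from 123574631 to 123577331 in stretch 6 with a score of 770.25, lay between genes and under a member. The next, from 118197547 to 118199109 in stretch 3 with 308.73, was also under a member. The third, from 124545523 to 124546975 with 230.46, had the nearest member 2.15 kb from its middle. Of all 60 WT H3K27ac peaks of the stretches, 13 lay over members, or 21.7% (12.1% to 34.2%). Members cover 37.3% of the stretch bases. The 9 of 28 are thus a description, and nothing is read from their number.

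Scores of H3K27ac at promoters gave little inside the stretches, because many scores pile up at 3100. That value was held by 7710 Kap1 KO and 9975 WT H3K27ac peaks, and 280 and 217 were above it. Of the 9 genes of the stretches with a peak at the start in both genotypes, 6 were at 3100 in 1 or both lists and were left out by the rule set beforehand. This left 3 with a median difference in score, Kap1 KO minus WT, of 46.06. The sign depends on that rule. With the genes below 3100 in at least 1 list kept, a choice made after the data were seen, 3 of 5 were lower in Kap1 KO and the median was -624.2. In the rest of the window the rule gave 79.2 over 13 genes (95% interval -739 to 472), and the wider choice gave -27.32 over 23 (-452.1 to 155.6). Over the rest of the genome the values were -447.9 over 2586 genes (-490.8 to -420.1) and -551.1 over 4599 (-585.1 to -528.3). With so few genes in the stretches, no direction is read from them. The genes Lgr5 and Fam19a2 had H3K27ac at the start in WT alone.

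H3K27ac peaks, which the choice of members did not use, were mostly wider in Kap1 KO than in WT cells over the bins that hold members. Where peaks of both genotypes overlapped, their summed widths were compared. In the 14 bins with members, outside the stretches, the Kap1 KO peaks were a median of 1.502-fold as wide as the WT peaks over 187 such places, and wider at 164, or 87.7% (82.1% to 92.0%). Inside the stretches the median was 1.21-fold over 31 places. In the 4 bins before the first member it was 0.836-fold over 47 places, with 17.0% (7.65% to 30.8%) wider, and in the 2 bins past the last member 1.09-fold over 30 places. On chromosome 10 before the window it was 0.879-fold over 1214 places, and on the other chromosomes 0.965-fold over 25834.

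The bases under H3K27ac followed the same line. In 12 of the 14 bins with members, Kap1 KO H3K27ac peaks covered more bases than WT peaks, 1273 kb against 912.4 kb over all 14. On chromosome 10 before the window this held for 19 of the 106 bins with an H3K27ac peak. That part is a low standard. Its ratio of Kap1 KO to WT bases was 0.779, beside 0.988 on the other chromosomes, whose bins were not counted in this way. The exceptions among the 14 were the bins from 123000001 and 124000001, those with the most members. They had 3.42 kb against 12.9 kb and 3.89 kb against 7.30 kb. Before the first member, the bin from 113000001 had 1.37 kb against 6.54 kb and the one from 112000001 had 12.97 kb against 29.5 kb. The ratio of Kap1 KO to WT was 0.210 in the bin from 113000001, 1.01 in the bin from 114000001, where members begin, and 1.31 in the next. It was 1.72 in the bin from 126000001, which holds Cdk4 and Gli1, and 1.71 in the bin from 117000001, which holds Mdm2. Past the last member it was 1.14 in the bin from 128000001 and 2.18 in the last bin, from 129000001, which has 11 Kap1 KO and 7 WT peaks and gave the highest ratio of the window. A ratio above 1 was thus not confined to bins with members. Both marks of a genotype share their total input, whose reads were not analysed here. The number of DNA copies of this region in the Kap1 KO cells was likewise not analysed here, so its part in the peak counts, widths and covered bases of both marks was not tested.

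Single members were wide and, in part, strong. Their median width was 1786.5 bp against 397 bp for the other Kap1 KO peaks, and their median score 94.7 against 60.5. Of the 100 widest peaks of the Kap1 KO list, 68 were members, and of the 100 with the highest score, 49. Width and score rose together over the 1180 members (Spearman correlation 0.74) as over the 3139 others (0.68), a description over peaks of 1 library. The widest members, of 15244, 14741 and 13621 bp, all lie in stretch 3 between genes, from 118167423 to 118182666, from 117685014 to 117699754 and from 117709010 to 117722630. Their scores, 263.3, 174.02 and 143.17, were far from the highest.

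The member with the highest score, 1206.88, was the sixth of the whole Kap1 KO list. It lies from 126179539 to 126184827 in stretch 7, the sparsest one, between genes and over 2 WT peaks, the stronger with a score of 194.54. In stretch 4 the highest was 776.2, from 120557153 to 120564877, and in stretch 3 it was 740.32, from 117663944 to 117672226. Stretch 1 reached 735.24, from 115037138 to 115042636. These 4 lie between genes. The highest of stretch 6, 509.63, from 124682756 to 124688848, lies in an intron of Slc16a7 with no WT peak, and that of stretch 8, 407.67, from 127207621 to 127212973, lies in an intron of Rdh9 over 3 WT peaks. Of the highest in stretches 5 and 2, with 515.1 and 446.04, the second lies over the pseudogene Kifc5c-ps.

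Many members at the edges were weak. The 16 first and last members of the stretches had a median score of 85.6, and 11 of them were below the median of all members. The first members of stretches 1, 3 and 5 had scores of 65.04, 75.68 and 67.57, and the last of stretches 6 and 7 had 54.44 and 62.69. The last member of stretch 4, from 120746899 to 120748491 with a score of 178.38, was stronger. It lies at the start of Tbc1d30 and over peaks of WT H3K9me3 and of H3K27ac in both genotypes. The first member of stretch 7, with 153.42, was also above the median of the members.

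The 45 members outside the stretches had a median score of 91.51 and a median width of 1672 bp, and 5 of them overlapped a WT H3K9me3 peak, or 11.1% (3.71% to 24.1%). They lay between genes less often than members in stretches, 20 of 45 or 44.4% (29.6% to 60.0%), and 22 lay in introns, or 48.9% (33.7% to 64.2%). Of the positions of the window outside the stretches, 57.3% are between genes and 33.7% in introns. Of these 45, 17 lay between stretches 4 and 5, where D930020B18Rik has 11 members over its body, and 8 between stretches 6 and 7. At the border of the window nothing changed. The last Kap1 KO peak before it, from 101004709 to 101004977 with a score of 57.55, lay 8.995 Mb away, and the first member, from 114066676 to 114067723 with 109.35, lay 4.07 Mb inside. The last member ended at 127419877, which is 2.57 Mb before the end of the chromosome.

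The sequence under members was richer in G and C than the stretches as a whole, and less so than other Kap1 KO peaks. The median G+C content was 43.1% for members, 41.8% for the stretches cut into pieces of the members' median width, and 49.2% for the other Kap1 KO H3K9me3 peaks. Members of stretch 6 were lowest with 41.1%, and those of stretch 7 highest with 46.6%. CG dinucleotides, where DNA methylation occurs, numbered a median of 0.910 per 100 bp in members and 0.840 in the pieces. The median was 0.924 in the other Kap1 KO peaks and 0.896 in such pieces of the window outside the stretches. Members of stretch 2 had 1.397 and those of stretch 6 had 0.713.

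To show what such ground reads like, the middle 100 bases of the highest-scoring member are given for the 4 stretches with the most members, read from the plus strand of mm9, with CG dinucleotides in capitals. The first comes from chr10:115039837-115039936, the second from chr10:117668035-117668134, the third from chr10:121607308-121607407 and the last from chr10:124685752-124685851.
Stretch 1, between genes: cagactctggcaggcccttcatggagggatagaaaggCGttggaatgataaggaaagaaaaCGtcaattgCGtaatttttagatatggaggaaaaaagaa
Stretch 3, between genes: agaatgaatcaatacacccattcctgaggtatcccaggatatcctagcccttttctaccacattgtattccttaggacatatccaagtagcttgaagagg
Stretch 5, between genes: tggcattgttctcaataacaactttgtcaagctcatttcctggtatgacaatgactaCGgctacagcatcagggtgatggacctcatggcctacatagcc
Stretch 6, intron of Slc16a7: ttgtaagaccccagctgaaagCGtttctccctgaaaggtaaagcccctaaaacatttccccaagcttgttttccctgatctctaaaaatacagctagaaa
They hold 3, 0, 1 and 1 CG dinucleotides, and their G+C content is 41%, 42%, 46% and 42%.

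The edges of the largest stretch are shown in the same way, with the first 100 bases of its first member, chr10:122658855-122658954, and the last 100 of its last, chr10:125337873-125337972. Both lie between genes.
First bases of stretch 6: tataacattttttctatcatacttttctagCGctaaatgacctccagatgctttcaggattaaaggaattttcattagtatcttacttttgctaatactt
Last bases of stretch 6: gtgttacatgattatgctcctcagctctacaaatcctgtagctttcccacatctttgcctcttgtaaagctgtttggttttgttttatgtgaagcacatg
With 29% and 40% of G+C, both are poorer than the median member of the stretch.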

How the data were processed

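Peak lists of H3K9me3 and H3K27ac in WT and Kap1 KO MEF, and of KAP1 in Hepa 1.6 cells, were used with the score the authors deposited. The authors mapped reads to mm9 with Bowtie2 2.2.1 and used MACS 1.4 with the total input as control. The Supplemental Procedures name a cutoff score of 80, but MEF lists start at 50 to 50.03. All deposited peaks were kept, and a score of at least 80 is an alternative. Read counts were not used, so depth is unknown, and signal below the calling threshold is not seen. Overlap meant at least 1 shared bp. Genes came from GENCODE M1 on NCBIM37, the same assembly as mm9. Classes were taken at the middle of a peak. Named genes were those at or next to the edges, the 10 with the most members, and genes of fixed lists. Os9 and Mmp19 within their list, and Iltifb, Rdh7, Rdh19, BC089597, Tmem5, Slc35e3, 4932442E05Rik and Sdr9c7 outside the rule, were picked after their values were seen. So were the single-genotype H3K27ac peaks, the gaps of 20 kb, the H3K27ac widths and the base composition. The members and lists were chosen with earlier results of these data known. Tools were bedtools 2.31.1 and Python 3.11.15 with scipy 1.17.1, pandas 2.3.3 and numpy 2.4.6, and functions were tested on simulated peaks. SETDB1, mESC, liver, input and RNA libraries were not analysed here.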

Additional observations from a re-analysis of the deposited data

How the results depend on the processing

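Of 75 alternatives over 15 results, 54 left the value within 1.5 times, for counts and lengths, or within its 95% interval, for shares. The length of the dense stretches ran from 5.82 to 7.55 Mb and the genes starting in them from 23 to 32. With scores of at least 80 in every list, the cutoff of the Supplemental Procedures, members numbered 722, the fullest bin held 145, bins with more Kap1 KO than WT peaks 93, and members in stretches 664. Members over WT H3K9me3 then made up 3.05% and WT peaks over members 35.6%. With the upper 50% of each list, such bins numbered 181, and 3.18% of members lay over WT H3K9me3, 0% over Kap1 KO H3K27ac and 0.220% over WT H3K27ac. The promoter difference reversed to -624.2 there, with 1 gene left of 3, and also with genes below 3100 in at least 1 list kept, a choice added after the data were seen, with 5 genes. Peaks within 1 kb gave 6.19% of members and 63.2% of WT peaks. Lists cut by score to equal length gave 583 bins and 1.69% of members. Starts within 2 kb gave 2.46%. Added after the data were seen, leaving out stretch 6 gave 8.13% over WT H3K9me3, 0.829% over WT H3K27ac, 2.32% at transcript starts, and 32.4% of WT H3K27ac peaks without a Kap1 KO peak. The last has an interval of 18.0% to 49.8% over 37 peaks. It holds the 22.3% of the rest of the window and also the 46.7% of all stretches. It therefore cannot tell whether that difference rests on stretch 6. The stricter score and the upper 50% keep fewer peaks by construction. The cause of the other changes was not tested. No paired analysis was possible because no result comes from a test and each group has 1 library. The unknown depth limits every count.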

Other observations

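The largest stretch was not filled evenly. Over pieces of 0.25 Mb, from 122750001 on, members numbered 48, 56, 60, 45, 35, 40, 59, 73, 83 and 62 up to 125250000. Their cover ran from 20.5% of bases, in the piece from 123750001, to 62.2% in the piece from 124750001. WT H3K9me3 peaks numbered at most 5 in any of these pieces. The fullest piece holds the start of Slc16a7.

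KAP1 peaks of Hepa 1.6 cells, another cell type, were sparse over the members. Of the 1180, 13 overlapped a KAP1 peak, or 1.10% (0.588% to 1.88%), against 2.13% (1.66% to 2.70%) of the other Kap1 KO H3K9me3 peaks. For the 814 other peaks that lie in dense stretches, the share was 1.11% (0.507% to 2.09%). Those 814 were narrower, with a median of 493.5 bp against 1786.5 bp for members. As the shares were not corrected for width, no likeness is read from them. Stretch 7, with the strongest member, held 0 KAP1 peaks, and stretches 5 and 8 held 9 each. In the 2 bins with the most members, there were 3 KAP1 peaks each, beside 31 in the bin from 127000001.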
